A study of Mus musculus with 30 samples.

Results

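Poly(A) RNA sequencing of βTC3 cells, an insulin-producing mouse insulinoma line, was used to ask how a pair of hairpins against ALK7 changed the transcriptional response to activin B. The comparison used 12 of the 30 libraries of the series, in 4 groups of 3: sh1/2 cells with activin B, sh1/2 cells under DOX alone, control cells with activin B and control cells under DOX alone. The sh1/2 cells carried the plasmid PB-31 with the hairpins ALK7sh1/2, and the control cells carried the plasmid PB-33. All 12 cultures received doxycycline (DOX), which switches the inducible constructs on, at 1 µg/ml for 24 hours. The activin B groups also received activin B at 50 ng/ml for 24 hours. All 12 libraries belonged to batch 1 of the labels. The PB-31 lines of the series all carried a hairpin against ALK7, so the hairpins, the plasmid and the derivation of the line cannot be told apart. The 3 libraries of a group came from wells of a single line, and p-values therefore measure the spread between wells, which may be technical.

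ALK7, encoded by Acvr1c, is a type I receptor serine/threonine kinase of the TGF-β family. Activin B binds a type II receptor (ActRIIA or ActRIIB), which recruits and phosphorylates a type I receptor such as ALK7 or ALK4 (Acvr1b). The active receptor phosphorylates SMAD2 and SMAD3, which enter the nucleus with SMAD4, bind short DNA elements that contain CAGAC, and change transcription, including that of their own inhibitors Smad7 and Skil. In pancreatic islets ALK7 is found in endocrine cells, where it is known for effects on insulin secretion, beta cell number and survival.

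The measured quantity was the interaction: the log2 activin B response in sh1/2 cells (activin B over DOX alone) minus the same response in control cells. A negative interaction of an induced gene, or a positive one of a repressed gene, is a blunted response. Levels are library-scaled counts (CPM) after the removal of each library's trend with gene GC content. Unless another method or setting is named, each adjusted p of a gene is from the edgeR quasi-likelihood F test. It is Benjamini-Hochberg adjusted over the 15216 genes tested, with a threshold of 0.05. Values given for DESeq2 or limma come from those methods, and other settings adjust over the genes they tested. Library totals ran from 18904884 to 34740789 counts. Every one of the 12 beta cell markers passed the low-count filter, with Ins2 the most abundant. Of the markers of other cell types, 6 of 16 for exocrine and duct cells, 2 of 12 for stromal and endothelial cells and 3 of 12 for immune cells passed it, and the trypsinogens Prss1 and Prss2, the amylase Amy2a5, the stromal Lum and the T cell gene Cd3e had 0 counts in all 12 libraries.

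Acvr1c itself (chr2:58267453-58357895, minus strand, mm10, protein-coding) was checked first. It stood at 30.3, 27.7 and 28.7 CPM in sh1/2 cells with activin B and 53.7, 48.6 and 51.9 CPM in sh1/2 cells under DOX alone, against 103, 99.01 and 97.5 CPM in control cells with activin B and 174, 161 and 171 CPM in control cells under DOX alone. The sh1/2 libraries lay below the control libraries in both arms, by -1.79 ± 0.06 SE on the log2 scale with activin B (adjusted p = 2.12e-10) and by -1.71 ± 0.06 under DOX alone (adjusted p = 2.86e-10). The transcript was thus reduced and still counted. Activin B lowered Acvr1c in both lines, by -0.83 in sh1/2 cells and -0.75 in control cells, and the interaction of -0.08 ± 0.08 SE (adjusted p = 0.583) was not called. In bulk samples such as these, fewer cells with a transcript and less of it per cell cannot be told apart.

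**Figure D1:**
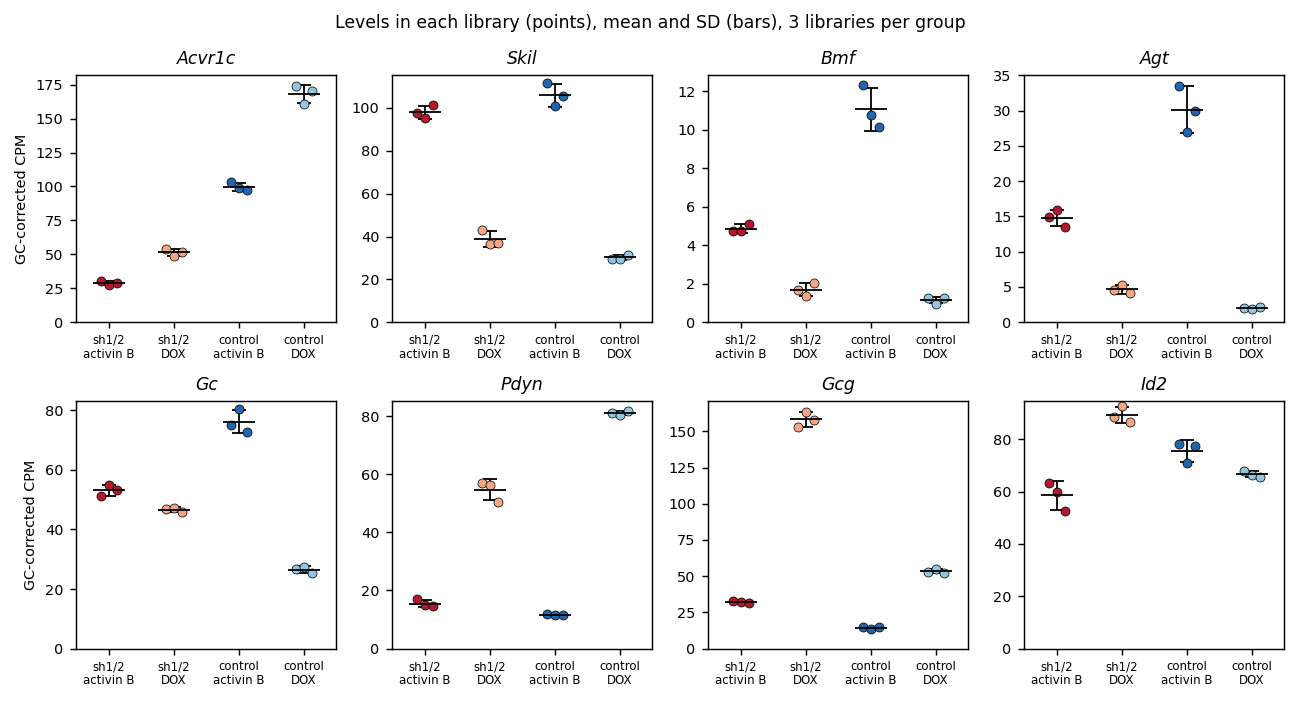
Levels of 8 genes in each of the 12 libraries. The vertical axes give GC-corrected CPM and start at 0, the points are libraries, and the bars are the mean and SD of 3 libraries per group, in the order sh1/2 with activin B, sh1/2 under DOX alone, control with activin B and control under DOX alone. Agt and Bmf reach lower levels with activin B in sh1/2 cells than in control cells and start from higher levels under DOX alone, while Acvr1c is lower in sh1/2 cells in both arms.

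Activin B still changed a large part of the transcriptome in sh1/2 cells. It changed 2754 of 15216 genes there (18.1%), of which 1294 rose and 1460 fell, against 3188 genes in control cells (21%), of which 1752 rose and 1436 fell. The interaction, which tests the difference between these responses for each gene, called 194 genes (1.27%). It was positive for 62 of them (0.407%) and negative for 132 (0.868%), and 2927 genes had an unadjusted p below 0.05 (19.2%). DESeq2 called 502 of the 11373 genes to which it gave an adjusted p (4.41%). Over all genes tested the median interaction was -0.04. Of the 194 called genes 188 are protein-coding and 38 had an interaction of at least 1 on the log2 scale in either direction.

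The replicate numbers paired the libraries within each line, and with the number as a block in the fit the interaction called 1568 genes (10.3%), 780 positive (5.13%) and 788 negative (5.18%). All 194 genes called without the block were among them, and the sh1/2 response then covered 28.5% of genes. The count of calls also turned on single libraries. Without sh1/2 DOX replicate 2 the test called 2654 genes, without control activin B replicate 1 it called 160, and without any one of the other 10 libraries it called between 86 and 120. The sh1/2 response covered 30.8% of genes without sh1/2 DOX replicate 2. The GC trend differed between libraries and, outside sh1/2 activin B, in sign within groups. Before correction the correlation of a library's deviations with gene GC content (Spearman, across genes) was between 0.379 and 0.519 in the sh1/2 activin B libraries. In replicates 1 to 3 of sh1/2 DOX the correlation was -0.574, 0.334 and -0.616. In the control libraries it was 0.333, -0.561 and 0.067 with activin B, and 0.35, -0.0726 and 0.141 under DOX alone. After correction it ran from -0.196 to 0.147 over the 12 libraries, and the interaction still correlated with GC content at 0.215 across genes, against 0.676 without correction. The median GC content was 51.23% for the 62 positive and 49.05% for the 132 negative called genes, against 49.58% for all genes tested. The median thus lay above that of all genes for positive calls and below it for negative ones, the direction of the remaining correlation. The part of GC content in the calls was not tested. Without the GC term 56 genes were called, 54 of them among the 194. A further fit left out the 3 libraries with strong GC trends, all negative (sh1/2 DOX replicates 1 and 3, control activin B replicate 2). It kept replicate 2 as the only library of sh1/2 DOX, and kept the sh1/2 activin B libraries at 0.379 to 0.519. Calls lost in that fit, given below, rest on that library alone for the sh1/2 DOX level.

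**Figure D2:**
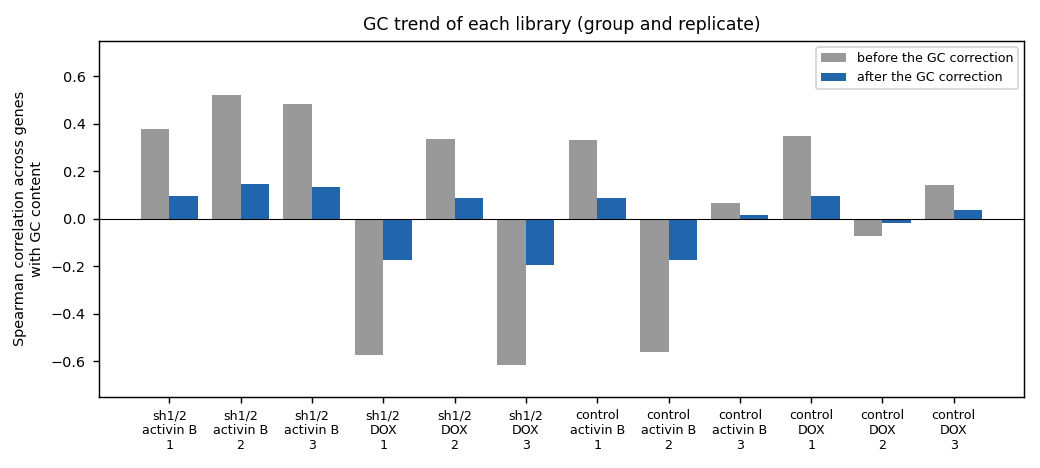
GC trend of each library before (grey) and after (blue) correction. Bars give the Spearman correlation, across genes, of a library's log2 deviations from the mean of the 12 libraries with the GC content of the gene. Replicates 1 and 3 of sh1/2 DOX and replicate 2 of control activin B lie at -0.574, -0.616 and -0.561 before correction, and the 12 libraries lie between -0.196 and 0.147 after it.

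Of the 194 genes 166 were blunted. Of these, 112 were called induced in control cells with a negative interaction, and 54 were called repressed there with a positive interaction. A further 9 were called in the opposite direction in sh1/2 cells. There were 4 enhanced genes, all of them repressed, and 15 genes that were called in sh1/2 cells and not in control cells. With the replicate block these classes held 855, 123, 50 and 478 of 1568 genes. Some other settings had fewer blunted genes than genes of the other classes: 916 of 2654 were blunted without sh1/2 DOX replicate 2, when 1277 were called in sh1/2 cells alone, and 1024 of 2392 with limma and library weights. The interaction and the control response share the control libraries, so the split into blunted and enhanced is a description and not a separate test.

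Over the 112 blunted induced genes the median log2 response was 0.43 in sh1/2 cells and 1.13 in control cells, and 70 of them were still called induced in sh1/2 cells. Over the 54 blunted repressed genes it was -0.25 in sh1/2 cells and -0.85 in control cells, and 24 were still called repressed. Most of the 112 genes thus kept a called induction in sh1/2 cells. Most of the 54 had no called response there. Genes called the other way in sh1/2 cells are in the opposite class by definition.

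**Figure D3:**
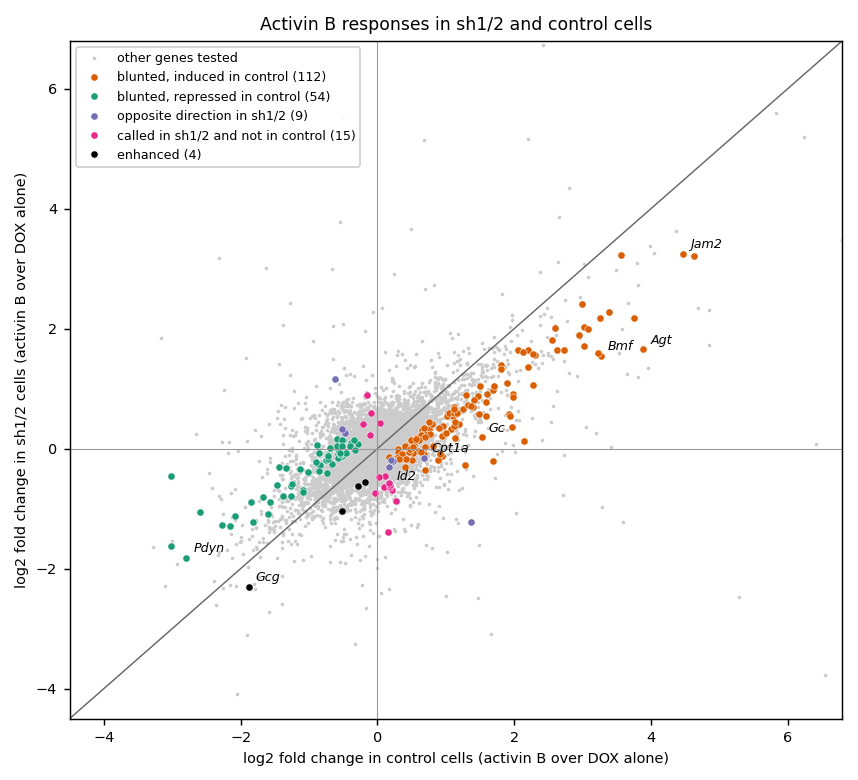
Activin B responses in sh1/2 cells (vertical axis) and control cells (horizontal axis), as log2 fold changes of activin B over DOX alone, with 1 point per gene tested and the 194 genes called in the interaction in colour by class. The diagonal marks equal responses. The 112 blunted induced genes lie below it on the right and the 54 blunted repressed genes above it on the left.

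The pathway's own genes follow in the order of the cascade. Of the 4 activin and TGF-β type I receptor genes 0 were called (1 at an unadjusted p below 0.05, 0 by DESeq2), with interactions between -0.19 and 0.13. Acvr1b, which encodes ALK4, the other activin type I receptor, stood at 44.7 ± 0.912 CPM in sh1/2 cells with activin B and 36.01 ± 2.48 CPM in sh1/2 cells under DOX alone, against 31.4 ± 1.43 CPM in control cells with activin B and 27.1 ± 1.55 CPM in control cells under DOX alone (SD, n = 3 each). It was higher in sh1/2 cells in both arms (0.51 ± 0.06 SE with activin B, adjusted p = 3.42e-05, and 0.41 ± 0.07 under DOX alone, adjusted p = 0.000258), while its interaction was 0.10 ± 0.09 SE (adjusted p = 0.574). The type II receptor genes Acvr2a and Acvr2b had interactions of -0.17 ± 0.09 SE (adjusted p = 0.293) and 0.63 ± 0.30 SE (adjusted p = 0.264). Tgfbr1, the TGF-β type I receptor, had -0.19 ± 0.07 SE (adjusted p = 0.195). These 3 were called without sh1/2 DOX replicate 2, with adjusted p of 0.0349 for Acvr2a, 0.0489 for Acvr2b and 0.00929 for Tgfbr1, and with limma and library weights (0.04, 0.0334 and 0.0214 in the same order). Acvr2a and Tgfbr1 were also called in the fit of all 30 libraries without the GC term (0.0348 and 0.0343).

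Among the transducers, Smad2, Smad3 and Smad4 were not called, at 0.02 ± 0.07, 0.34 ± 0.15 and -0.11 ± 0.07 SE (adjusted p = 0.896, 0.235 and 0.388). Smad3 was called in the fit of all 30 libraries without the GC term (0.02). It fell with activin B in both lines, by -0.78 in sh1/2 cells and -1.11 in control cells. Of 9 transducers tested, 1 was called in the interaction and 2 with the block, beside 1.27% of all genes and 10.3% with the block. The gene called was Smad9, which encodes the BMP-pathway SMAD8. It stood at 20.3, 21.2 and 19.8 CPM in the sh1/2 activin B libraries and 34.3, 31.1 and 37.01 CPM in the sh1/2 DOX libraries, against 42.1, 42.2 and 39.4 CPM in the control activin B libraries and 44.2, 39.7 and 42.7 CPM in the control DOX libraries. The 3 sh1/2 activin B libraries lay below all other 9. Smad9 fell in sh1/2 cells (-0.74, adjusted p = 4.5e-06) and was not called in control cells (-0.03, adjusted p = 0.804), with an interaction of -0.70 ± 0.10 SE (adjusted p = 0.00488).

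Most feedback inhibitors of the pathway were induced in both lines. Of 11 tested, 8 rose in sh1/2 cells and 8 in control cells, beside 8.5% of all genes in sh1/2 cells and 11.5% in control cells, and 1 was called in the interaction, or 5 with the replicate block (4 negative, 1 positive), beside 1.27% and 10.3% of all genes. The median interaction of the 11 was -0.13. Skil, a corepressor that binds SMADs and is itself a SMAD target, stood at 97.7, 95.2 and 101 CPM in the sh1/2 activin B libraries and 43.00, 36.7 and 36.97 CPM in the sh1/2 DOX libraries, against 111, 101 and 106 CPM in the control activin B libraries and 29.5, 29.6 and 31.5 CPM in the control DOX libraries. The activin B libraries of the 2 lines overlapped, and the sh1/2 DOX libraries lay above the control DOX libraries. Its response was 1.33 in sh1/2 cells and 1.81 in control cells, an interaction of -0.48 ± 0.09 SE (adjusted p = 0.0231). That call was lost without the GC term (adjusted p = 0.0648), without the 3 libraries with strong GC trends (0.0555) and without any one of 8 single libraries, with adjusted p between 0.0528 without control activin B replicate 1 and 0.0746 without sh1/2 activin B replicate 2.

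Smad7, which blocks the receptors, stood at 13.3, 11.9 and 12.6 CPM in the sh1/2 activin B libraries and 5.56, 3.28 and 5.45 CPM in the sh1/2 DOX libraries, against 14.4, 14.4 and 13.9 CPM in the control activin B libraries and 2.89, 2.37 and 2.84 CPM in the control DOX libraries. It showed the same form, with activin B levels just below those of control cells and a higher starting level. Its interaction was -0.97 ± 0.22 SE (adjusted p = 0.0528), with an adjusted p of 0.0129 under the replicate block and 0.000588 without replicate 2 of sh1/2 DOX, the lowest of its 3 libraries for Smad7. It was also called with GC and length trends (0.0387), in the fits of all 30 libraries (0.00169 with and 0.031 without GC trends), by DESeq2 (0.00681) and by limma with library weights (0.00293). Pmepa1, which sequesters receptor-activated SMADs, had a lower level with activin B in sh1/2 cells, at 41.7 ± 0.613 CPM in sh1/2 cells with activin B and 9.93 ± 1.56 CPM in sh1/2 cells under DOX alone, against 75.5 ± 3.80 CPM in control cells with activin B and 12.5 ± 1.91 CPM in control cells under DOX alone (SD, n = 3 each). Its interaction was -0.54 ± 0.15 SE (adjusted p = 0.111), with an adjusted p of 0.0325 with the block and 0.0219 by DESeq2. Bambi, a decoy receptor, was not called with or without the block (-0.29 ± 0.13 SE, adjusted p = 0.255 without and 0.141 with it). It was called without the 3 libraries with strong GC trends (-0.58, adjusted p = 0.00819), in the block fit without the GC term (-0.44, 0.0419) and in the fit of all 30 libraries without it (-0.44, 0.00296).

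Of 20 known SMAD2/3 target genes tested, 2 were called in the interaction, both negative, or 4 with the block, beside 1.27% of all genes and 10.3% with the block, and their median interaction was -0.12. Nuak1, a kinase related to AMPK, stood at 73.4, 71.7 and 80.04 CPM in sh1/2 cells with activin B and 51.7, 46.97 and 56.1 CPM in sh1/2 cells under DOX alone, against 158, 141 and 155 CPM in control cells with activin B and 75.8, 72.3 and 77.7 CPM in control cells under DOX alone. The sh1/2 libraries lay below the control libraries in both arms. Its response was 0.54 in sh1/2 cells and 1.01 in control cells, an interaction of -0.47 ± 0.10 SE (adjusted p = 0.0335). The Nuak1 call was lost without the GC term (0.181), without the 3 libraries with strong GC trends (0.115), without the low-count filter (0.0871), with all 30 libraries and no GC term (0.0582) and without any one of 10 single libraries (adjusted p up to 0.113, without sh1/2 activin B replicate 2). Cdkn1a, the cell cycle inhibitor p21, stood at 164, 160.4 and 164 CPM in the sh1/2 activin B libraries and 225, 218 and 228 CPM in the sh1/2 DOX libraries, against 93.2, 92.4 and 101 CPM in the control activin B libraries and 85.9, 90.2 and 90.2 CPM in the control DOX libraries. It was higher in every sh1/2 library than in every control library. Activin B lowered it in sh1/2 cells (-0.46, adjusted p = 6.18e-06) and it was not called in control cells (0.11, adjusted p = 0.135), with an interaction of -0.57 ± 0.07 SE (adjusted p = 0.0013), which was not called without the GC term (0.181, and 0.0636 with the block).

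Id2, an inhibitor of basic helix-loop-helix factors and a typical target of BMP signals, also fell in sh1/2 cells alone by the test of each line. It stood at 63.3, 59.9 and 52.6 CPM in sh1/2 cells with activin B and 88.5, 92.7 and 86.7 CPM in sh1/2 cells under DOX alone, against 78.1, 70.7 and 77.6 CPM in control cells with activin B and 67.8, 66.4 and 65.7 CPM in control cells under DOX alone. In sh1/2 cells the activin B libraries lay below the DOX libraries, and in control cells they lay above them. The response was -0.61 in sh1/2 cells and 0.18 in control cells, called in sh1/2 cells (adjusted p = 1.46e-05) and not in control cells (0.0689), with an interaction of -0.79 ± 0.09 SE (adjusted p = 0.0015). Of 8 BMP and SMAD1/5 targets tested Id2 was the 1 called, and 3 were called with the block, all negative, beside 1.27% of all genes and 10.3% with the block. Their median interaction was -0.35.

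Of the 112 blunted induced genes, those described next had the largest interactions among genes called with and without the GC term at a mean of at least 2 CPM over the 12 libraries, or were called members of a gene list. Nt5e (-2.02), Sorcs3 (-1.91), Kcng4 (-1.63) and Aldh1a1 (-1.61) had interactions of similar size at mean levels below that minimum and are named after their values were seen. Kcng4 and Aldh1a1 were also not called without the GC term (adjusted p = 0.148 and 0.0665). Agt (chr8:124556534-124569706, minus strand), which encodes angiotensinogen, the precursor of angiotensin, stood at 14.98, 15.9 and 13.6 CPM in sh1/2 cells with activin B and 4.52, 5.32 and 4.09 CPM in sh1/2 cells under DOX alone, against 33.6, 26.97 and 29.98 CPM in control cells with activin B and 2.04, 1.94 and 2.16 CPM in control cells under DOX alone. The groups did not overlap in either arm: sh1/2 cells started above control cells and ended below them. The log2 response was 1.66 in sh1/2 cells and 3.88 in control cells, an interaction of -2.23 ± 0.16 SE (adjusted p = 1.81e-05). Gc (chr5:89417522-89457898, minus strand) encodes the vitamin D binding protein and is made by islet alpha cells and liver. It stood at 51.4, 54.9 and 53.3 CPM in the sh1/2 activin B libraries and 46.8, 47.4 and 45.7 CPM in the sh1/2 DOX libraries, against 75.2, 80.5 and 72.8 CPM in the control activin B libraries and 26.7, 27.5 and 25.2 CPM in the control DOX libraries. The sh1/2 DOX libraries again lay above the control DOX libraries and the sh1/2 activin B libraries below the control ones. Activin B raised Gc by 0.19 ± 0.06 SE in sh1/2 cells and by 1.52 ± 0.06 SE in control cells, an interaction of -1.33 ± 0.08 SE (adjusted p = 2.1e-06).

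Bmf (chr2:118528757-118549687, minus strand), a BH3-only protein of the BCL2 family that promotes apoptosis, had a low level under DOX alone. It stood at 4.73, 4.74 and 5.12 CPM in the sh1/2 activin B libraries and 1.69, 1.36 and 2.03 CPM in the sh1/2 DOX libraries, against 12.3, 10.7 and 10.1 CPM in the control activin B libraries and 1.25, 0.957 and 1.25 CPM in the control DOX libraries. The control activin B libraries lay above all others. Activin B raised it by 1.55 ± 0.15 SE in sh1/2 cells and 3.27 ± 0.16 SE in control cells, and the interaction was -1.72 ± 0.22 SE (adjusted p = 0.0025). Of 26 genes of the BCL2 family and other death genes tested, Bmf was the 1 called (4 with the block, of which 3 were negative), beside 1.27% and 10.3% of all genes, and the median of the 26 was -0.08. Trp53inp1, a p53 target that promotes autophagy and cell death, had a response of 0.60 in sh1/2 cells and 1.16 in control cells and an interaction of -0.56 ± 0.09 SE (adjusted p = 0.00779), not called without the GC term (0.102).

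Of 16 genes for epithelial-mesenchymal transition, cadherins and adhesion 1 was called (2 with the block, both negative), beside 1.27% and 10.3% of all genes. Jam2, a junctional adhesion molecule, was the gene called. It stood at 14.7, 14.9 and 14.2 CPM in sh1/2 cells with activin B and 1.45, 1.44 and 1.76 CPM in sh1/2 cells under DOX alone, against 49.03, 51.7 and 45.8 CPM in control cells with activin B and 1.77, 2.65 and 2.13 CPM in control cells under DOX alone. Its induction was large in both lines, with the sh1/2 libraries below the control ones in both arms. The response was 3.25 in sh1/2 cells and 4.46 in control cells, an interaction of -1.21 ± 0.17 SE (adjusted p = 0.00488) that was not called without the 3 libraries with strong GC trends (0.062). Lamb1 (chr12:31265234-31329644, plus strand), the laminin β1 chain of basement membranes, stood at 9.94, 10.4 and 10.2 CPM in the sh1/2 activin B libraries and 2.06, 2.75 and 2.88 CPM in the sh1/2 DOX libraries, against 13.6, 15.3 and 14.8 CPM in the control activin B libraries and 1.61, 1.69 and 1.85 CPM in the control DOX libraries. Here the difference under DOX alone was as marked as that with activin B, in the opposite direction. Its interaction was -1.09 ± 0.17 SE (adjusted p = 0.00721). Itga6, a laminin-binding integrin subunit, was not called in sh1/2 cells and was induced in control cells (0.04 in sh1/2 cells and 0.81 in control cells), with an interaction of -0.76 ± 0.10 SE (adjusted p = 0.00343). Spon2, a secreted matrix protein, had -1.42 ± 0.25 SE (adjusted p = 0.0145), a call lost without the GC term (0.181), without the low-count filter (0.0836) and without any one of 4 single libraries (adjusted p up to 0.0712, without control DOX replicate 3).

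Of 25 matrix, integrin and protease genes tested Lamb1, Itga6 and Spon2 were called in the interaction, all negative, with or without the block, beside 1.27% of all genes and 10.3% with the block, and the median of the 25 was -0.10. Cdh17, a cadherin of intestinal epithelium, and Adamts6, a secreted metalloprotease, had interactions of -1.56 ± 0.23 SE (adjusted p = 0.00491) and -1.30 ± 0.18 SE (adjusted p = 0.00488). Cdh17 was higher in sh1/2 cells in both arms, at 7.72 ± 0.664 CPM in sh1/2 cells with activin B and 1.69 ± 0.248 CPM in sh1/2 cells under DOX alone, against 3.96 ± 0.224 CPM in control cells with activin B and 0.291 ± 0.0103 CPM in control cells under DOX alone (SD, n = 3 each). Epha5, an ephrin receptor, was also higher in sh1/2 cells in both arms and had an interaction of -0.91 ± 0.11 SE (adjusted p = 0.00207). Timm8a1, a chaperone of the mitochondrial intermembrane space, had -1.56 ± 0.22 SE (adjusted p = 0.00632). Its reads may be shared with the similar gene Timm8a2, so its value is uncertain, and the call was lost without the 3 libraries with strong GC trends (0.25) and in the fits of all 30 libraries.

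The promoter sequences of 3 blunted induced genes are shown because activin B induced them in control cells and SMAD3 and SMAD4 bind elements with CAGAC. They had the largest interactions among the blunted induced genes named by size that had a single promoter entry and kept their call in every alternative. Bmf, Cdh17 and Adamts6 had larger interactions than Lamb1 and were left out for lack of a single entry. They are RefSeq promoters of build GRCm38.p6, from 250 bases before to 50 after the start that RefSeq gives the gene, in the direction of transcription, with CAGAC or its reverse complement GTCTG in capitals. The gene intervals printed above are those of GENCODE, in which Lamb1 starts upstream of its RefSeq start.
Agt, chr8:124569657-124569956, minus strand: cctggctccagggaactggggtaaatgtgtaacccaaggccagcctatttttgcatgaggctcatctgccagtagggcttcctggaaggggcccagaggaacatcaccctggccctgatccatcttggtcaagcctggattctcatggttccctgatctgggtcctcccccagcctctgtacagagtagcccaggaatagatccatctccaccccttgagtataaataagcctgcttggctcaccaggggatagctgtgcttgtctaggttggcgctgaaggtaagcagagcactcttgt
Gc, chr5:89457849-89458148, minus strand: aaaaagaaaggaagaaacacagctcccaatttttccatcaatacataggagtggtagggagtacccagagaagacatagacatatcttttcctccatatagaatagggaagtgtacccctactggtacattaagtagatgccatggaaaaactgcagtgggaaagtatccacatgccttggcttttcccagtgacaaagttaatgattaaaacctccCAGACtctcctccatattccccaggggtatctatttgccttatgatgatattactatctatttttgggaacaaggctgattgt
Lamb1, chr12:31265043-31265342, plus strand: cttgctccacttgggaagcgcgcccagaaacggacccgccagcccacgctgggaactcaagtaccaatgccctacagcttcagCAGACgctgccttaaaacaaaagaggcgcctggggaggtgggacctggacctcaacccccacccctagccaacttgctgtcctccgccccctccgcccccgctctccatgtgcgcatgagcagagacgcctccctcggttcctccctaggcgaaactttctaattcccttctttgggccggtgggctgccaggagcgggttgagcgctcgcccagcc
The letters occur 1 time in the Gc window, 1 time in the Lamb1 window and 0 times in the Agt window. They occur in 16292 of 32851 mouse promoters of the same length (49.6%), so a match in such a window is common. The palindrome GTCTAGAC, which is GTCT followed directly by its reverse complement AGAC, occurs in 70 promoters (0.213%) and in 0 of these 3. A match describes letters and not a bound site.

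Some endocrine transcription factors of the progenitor stage were induced less in sh1/2 cells. Of 10 tested, 3 were called in the interaction (Pax4, Sox4 and Hes6), all negative, or 6 with the block (5 negative, 1 positive), beside 1.27% of all genes and 10.3% with the block, and the median of the 10 was -0.26. Pax4 (chr6:28442334-28449353, minus strand), which directs islet progenitors toward beta and delta cells, stood at 70.7, 65.3 and 68.3 CPM in sh1/2 cells with activin B and 17.6, 16.6 and 21.4 CPM in sh1/2 cells under DOX alone, against 76.6, 75.04 and 76.96 CPM in control cells with activin B and 9.46, 10.8 and 9.39 CPM in control cells under DOX alone. Its levels with activin B were not called different between the lines (-0.16, adjusted p = 0.13), and its levels under DOX alone were higher in every sh1/2 library than in every control library. The response was 1.89 in sh1/2 cells and 2.94 in control cells, an interaction of -1.05 ± 0.12 SE (adjusted p = 0.00115).

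Sox4, a factor needed for endocrine differentiation, had the same form, at 85.8 ± 6.32 CPM in sh1/2 cells with activin B and 52.8 ± 5.71 CPM in sh1/2 cells under DOX alone, against 78.4 ± 5.46 CPM in control cells with activin B and 29.9 ± 2.11 CPM in control cells under DOX alone (SD, n = 3 each), and an interaction of -0.69 ± 0.12 SE (adjusted p = 0.0126). Hes6, a bHLH factor that counters Hes1, differed instead in the activin B arm (-0.70, adjusted p = 2.03e-05) and not under DOX alone (-0.10, adjusted p = 0.387), with an interaction of -0.60 ± 0.12 SE (adjusted p = 0.0283). Sox4 was not called without the GC term (0.0615) or without the 3 libraries with strong GC trends (0.19). Hes6 was not called without the GC term, where its interaction was -0.06 (adjusted p = 0.814), nor without the 3 libraries with strong GC trends (0.298), without the low-count filter (0.313), in the block fit without the GC term (0.8), with all 30 libraries and no GC term (0.76) or without any one of 8 single libraries (adjusted p up to 0.0963, without sh1/2 DOX replicate 1). Of 29 mature beta cell genes 0 were called by edgeR, 13 had an unadjusted p below 0.05, DESeq2 called 3 and the block 6 (4 positive, 2 negative), beside 1.27%, 19.2%, 4.41% and 10.3% of all genes in the same order, and their median was -0.03. Ins2, the more abundant insulin gene, stood at 5254 ± 618 CPM in sh1/2 cells with activin B and 6306 ± 1647 CPM in sh1/2 cells under DOX alone, against 5446 ± 818 CPM in control cells with activin B and 10197 ± 133 CPM in control cells under DOX alone (SD, n = 3 each), with an interaction of 0.64 ± 0.25 SE (adjusted p = 0.217). Its reads and those of the similar gene Ins1 may be shared.

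Of 29 prohormone processing and granule genes tested 3 were called, all negative, or 9 with the block (3 positive, 6 negative), beside 1.27% of all genes and 10.3% with the block, and the median was 0.09. Scg3, a granin of secretory granules, stood at 580.4, 566 and 617 CPM in the sh1/2 activin B libraries and 459.7, 400.2 and 494 CPM in the sh1/2 DOX libraries, against 798, 916 and 861 CPM in the control activin B libraries and 379.8, 411 and 398 CPM in the control DOX libraries. The control activin B libraries lay above all others. Its response was 0.38 in sh1/2 cells and 1.11 in control cells, an interaction of -0.73 ± 0.10 SE (adjusted p = 0.00488). Syt7, a calcium sensor of exocytosis, was not called in sh1/2 cells (0.02, adjusted p = 0.84) and was induced in control cells (0.52, adjusted p = 9.52e-06), with an interaction of -0.50 ± 0.08 SE (adjusted p = 0.00777) that was not called without the GC term (0.181, and 0.0694 with the block). Tph1, the enzyme that starts serotonin synthesis, had -1.08 ± 0.22 SE (adjusted p = 0.0297), a call lost without the GC term (0.05004), without the 3 libraries with strong GC trends (0.195) and without any one of 9 single libraries (adjusted p up to 0.0973, without sh1/2 DOX replicate 1).

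The blunted repressed genes included chaperones of the endoplasmic reticulum (ER). Of 30 ER chaperone and unfolded protein response genes tested, 21 fell with activin B in sh1/2 cells and 25 in control cells, beside 9.6% of all genes in sh1/2 cells and 9.44% in control cells. In the interaction 5 were called, all positive (Derl3, Hyou1, Pdia4, Pdia6 and Sdf2l1), or 12 with the block, all positive, beside 1.27% of all genes and 10.3% with the block. The median of the 30 was 0.12 beside -0.04 for all genes tested. Pdia6, a protein disulfide isomerase, stood at 503, 516 and 519.7 CPM in sh1/2 cells with activin B and 714, 872 and 779.6 CPM in sh1/2 cells under DOX alone, against 345, 329 and 378 CPM in control cells with activin B and 798, 872 and 846 CPM in control cells under DOX alone. The DOX libraries of the 2 lines overlapped, and with activin B every sh1/2 library lay above every control library. The response was -0.62 in sh1/2 cells and -1.26 in control cells, an interaction of 0.64 ± 0.10 SE (adjusted p = 0.00777). Sdf2l1, a partner of the ER chaperone BiP, and Hyou1, an ER chaperone of the HSP70 family, had interactions of 0.66 ± 0.09 SE (adjusted p = 0.00488) and 0.49 ± 0.08 SE (adjusted p = 0.0107). Sdf2l1 was not called without the GC term (0.0615). Hspa5, which encodes BiP, fell by -0.53 in sh1/2 cells and -0.77 in control cells and was called in the interaction with the block (0.0338) but not without it (0.24, adjusted p = 0.147).

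Bhlha15, the factor MIST1 of secretory cells, was not called in sh1/2 cells and fell in control cells (-0.07 in sh1/2 cells and -0.85 in control cells). Its interaction was 0.78 ± 0.13 SE (adjusted p = 0.0101), not called without the 3 libraries with strong GC trends (0.106). Among the 54 blunted repressed genes there were further genes of the secretory pathway, named here after their values were seen: Sec61a1, the channel of the ER translocon, had 0.38 ± 0.08 SE (adjusted p = 0.0358), and Kdelr2, a receptor that returns ER proteins, had 0.44 ± 0.09 SE (adjusted p = 0.034). Fkbp11, an ER prolyl isomerase, had 0.64 ± 0.14 SE (adjusted p = 0.0473). Sec61a1, Kdelr2 and Fkbp11 were picked from the called genes and not counted as a list, so they give no share of secretory genes called. Of the 54 blunted repressed genes 13 were also called without the GC term.

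**Figure D4:**
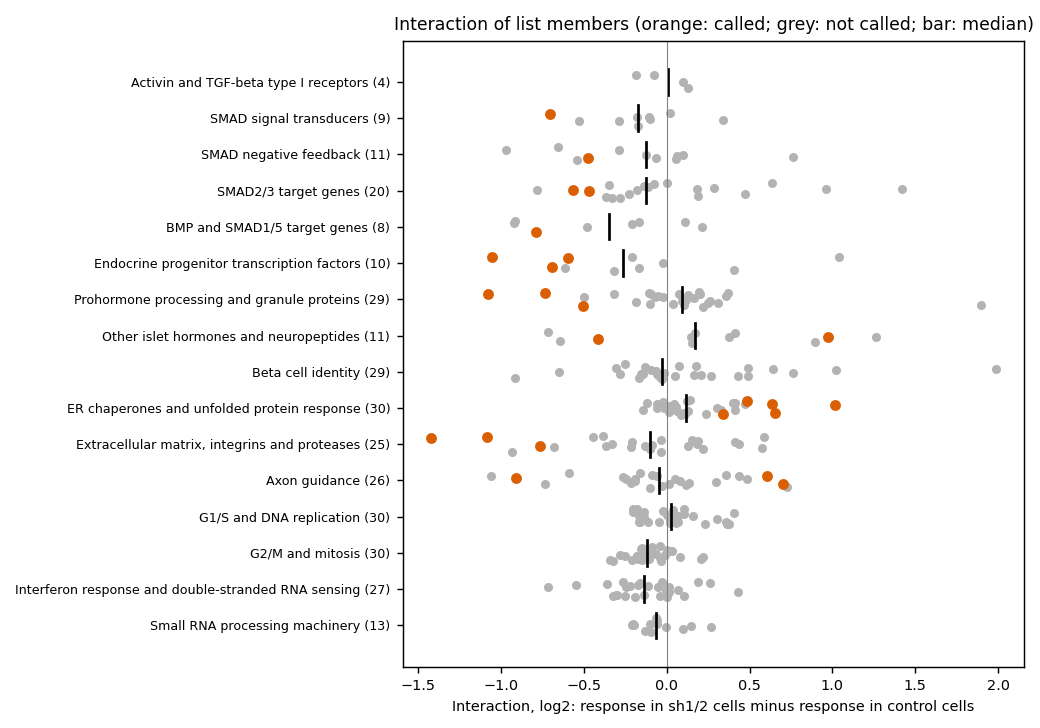
Interaction of the members of 16 gene lists, in log2 units (response in sh1/2 cells minus response in control cells). Each point is a gene tested, orange where it was called and grey where not, the bars are list medians, and the number tested stands beside each name. The 5 called ER genes lie to the right of 0, and the called genes of the progenitor and granule lists lie to its left.

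Hormone genes had interactions of both signs, while most fell with activin B. Of 11 islet hormone and neuropeptide genes tested, 6 fell and 1 rose in sh1/2 cells, beside 9.6% and 8.5% of all genes. In control cells 8 fell and 1 rose, beside 9.44% and 11.5%. Pdyn (chr2:129686565-129699844, minus strand), which encodes the opioid precursor prodynorphin, stood at 16.9, 15.00 and 14.6 CPM in sh1/2 cells with activin B and 57.04, 56.4 and 50.5 CPM in sh1/2 cells under DOX alone, against 11.7, 11.6 and 11.7 CPM in control cells with activin B and 80.97, 80.3 and 81.7 CPM in control cells under DOX alone. Under DOX alone every sh1/2 library lay below the control libraries, and with activin B every one lay above them. The response was -1.82 in sh1/2 cells and -2.79 in control cells, an interaction of 0.98 ± 0.09 SE (adjusted p = 0.00024). Gcg (chr2:62474530-62483650, minus strand), which encodes proglucagon, the alpha cell hormone precursor, stood at 33.03, 32.2 and 31.1 CPM in the sh1/2 activin B libraries and 153, 164 and 158 CPM in the sh1/2 DOX libraries, against 14.9, 13.6 and 14.8 CPM in the control activin B libraries and 53.1, 54.99 and 52.3 CPM in the control DOX libraries. The sh1/2 libraries lay above the control libraries in both arms. Activin B lowered Gcg by -2.30 ± 0.05 SE in sh1/2 cells and by -1.89 ± 0.06 SE in control cells, so that it was 1 of the 4 enhanced genes, with an interaction of -0.42 ± 0.07 SE (adjusted p = 0.0141). The Gcg call was lost without sh1/2 activin B replicate 3 (adjusted p = 0.0651), control activin B replicate 3 (0.0589) or control DOX replicate 3 (0.0617).

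The other enhanced genes, named outside the naming rule, were Sult1d1, a sulfotransferase, Tmem27, a beta cell membrane protein also called collectrin, and Parvb, an adaptor of focal adhesions. Without the GC term only 1 of the 4 enhanced genes kept its call, Gcg (adjusted p = 0.0228), so the calls of Sult1d1, Tmem27 and Parvb were lost. Of 11 islet hormone and neuropeptide genes tested, 1 was positive and 1 negative in the interaction, or 3 and 1 with the block, with a median of 0.17, beside 1.27% of all genes called and 10.3% with the block. Gip, another hormone gene, fell by -1.19 in sh1/2 cells and -1.34 in control cells and was not called (0.15 ± 0.14 SE, adjusted p = 0.588).

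Further repressed genes were blunted. Fat1, a giant protocadherin, stood at 803, 719.8 and 868 CPM in sh1/2 cells with activin B and 696, 641 and 794 CPM in sh1/2 cells under DOX alone, against 424, 358 and 394 CPM in control cells with activin B and 606, 556 and 605 CPM in control cells under DOX alone. Fat1 was not called in sh1/2 cells, whose activin B libraries lay above all control libraries, and it fell in control cells. Its response was 0.17 in sh1/2 cells and -0.59 in control cells, an interaction of 0.75 ± 0.12 SE (adjusted p = 0.0107). Cpn1, a secreted carboxypeptidase subunit, had 1.00 ± 0.15 SE (adjusted p = 0.00491), and Phactr3, which binds actin and protein phosphatase 1, had 0.88 ± 0.14 SE (adjusted p = 0.00777). Hs3st1, a heparan sulfate sulfotransferase, had 0.95 ± 0.16 SE (adjusted p = 0.0118), with an adjusted p of 0.051 without sh1/2 activin B replicate 3 and 0.133 without the 3 libraries with strong GC trends. The axon guidance genes Sema6a and Slit1 were called with 0.70 ± 0.12 SE (adjusted p = 0.0108) and 0.61 ± 0.10 SE (adjusted p = 0.0107), so that of 26 axon guidance genes 2 were positive and 1 negative, or 4 and 3 with the block, with a median of -0.04. The shares of all genes were 1.27% and 10.3%. Neither held without those 3 libraries (0.0813 and 0.0873), and Slit1 was not called without the GC term (0.123) or the low-count filter (0.0552) either.

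Lcp2, an adaptor of immune receptor signalling on the list of immune markers, stood at 1.77, 1.88 and 1.63 CPM in the sh1/2 activin B libraries and 5.56, 5.37 and 5.38 CPM in the sh1/2 DOX libraries, against 0.297, 0.462 and 0.396 CPM in the control activin B libraries and 2.79, 3.67 and 2.85 CPM in the control DOX libraries. It fell in both lines, by -1.62 in sh1/2 cells and -3.03 in control cells, with an interaction of 1.404 ± 0.24 SE (adjusted p = 0.0116), and was not called without the GC term (0.0546) or without the 3 libraries with strong GC trends (0.0671). The summed level of the immune markers ran from 9.12 to 9.94 CPM in sh1/2 cells with activin B and from 17.2 to 21.0 CPM in sh1/2 cells under DOX alone, against 6.78 to 8.40 CPM in control cells with activin B and 28.8 to 32.2 CPM in control cells under DOX alone. The part of contaminating cells in the Lcp2 result was not tested. Krt7, a keratin on the duct list, rose with activin B in both lines (1.39 in sh1/2 cells and 1.81 in control cells), with an interaction of -0.42 ± 0.09 SE (adjusted p = 0.0292). Its call was lost without the GC term (0.181, and 0.0892 with the block), without the 3 libraries with strong GC trends (0.145), without the low-count filter (0.172) and without any one of 9 single libraries (adjusted p up to 0.0935, without control DOX replicate 3). The exocrine and duct markers, most of whose sum is Krt7, summed to 60.1 to 60.9 CPM in sh1/2 cells with activin B and 32.8 to 34.8 CPM in sh1/2 cells under DOX alone, against 44.2 to 46.4 CPM in control cells with activin B and 19.0 to 21.2 CPM in control cells under DOX alone.

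A metabolic gene responded in opposite directions. Cpt1a (chr19:3322334-3385733, plus strand), the rate-limiting enzyme of mitochondrial fatty acid import, stood at 82.5, 77.6 and 83.6 CPM in sh1/2 cells with activin B and 90.7, 89.9 and 90.3 CPM in sh1/2 cells under DOX alone, against 92.1, 86.7 and 94.4 CPM in control cells with activin B and 56.1, 57.02 and 57.1 CPM in control cells under DOX alone. In sh1/2 cells the activin B libraries lay below the DOX libraries, and in control cells they lay above them. The response was -0.15 ± 0.05 SE in sh1/2 cells (adjusted p = 0.039) and 0.68 ± 0.05 SE in control cells, an interaction of -0.84 ± 0.07 SE (adjusted p = 4.09e-05). Cpt1a was the 1 gene called of 25 for fatty acid synthesis and oxidation, or 4 with the block, with a median of -0.02. Slc16a1, the monocarboxylate transporter MCT1, was induced in both lines (0.80 in sh1/2 cells and 1.42 in control cells), with -0.61 ± 0.08 SE (adjusted p = 0.00294), and was the 1 called of 25 glucose and pyruvate genes, or 5 with the block. Both lists lie against 1.27% of all genes and 10.3% with the block.

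Mmd2, a membrane protein of the progestin and adipoQ receptor family, changed the other way. It stood at 35.3, 34.5 and 38.7 CPM in the sh1/2 activin B libraries and 31.2, 29.03 and 30.6 CPM in the sh1/2 DOX libraries, against 42.2, 40.9 and 41.8 CPM in the control activin B libraries and 59.8, 58.2 and 55.97 CPM in the control DOX libraries. It rose in sh1/2 cells (0.26, adjusted p = 0.00662) and fell in control cells (-0.48), with 0.73 ± 0.08 SE (adjusted p = 0.00115). Sorl1, a sorting receptor, was called higher with activin B in sh1/2 cells (0.40) and not called in control cells (-0.21), with 0.61 ± 0.11 SE (adjusted p = 0.0129).

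Several lists had 0 calls in the edgeR interaction test. These were G1/S and DNA replication (30 genes, median interaction 0.03), G2/M and mitosis (30, -0.12), cholesterol synthesis and uptake (24, -0.05), interferon and double-stranded RNA sensing (27, -0.14) and small RNA processing (13, -0.07), the last pair being relevant to hairpin RNA. At an unadjusted p below 0.05 they had 6, 4, 11, 8 and 2 genes in the same order, beside 19.2% of all genes, and DESeq2 called 0, 0, 5, 1 and 0, beside 4.41%. With 1.27% of all genes called, 0 calls in lists of this size are near the background. With the block the calls were 4 of 30 (3 positive), 3 of 30 (1 positive), 10 of 24 (2 positive), 4 of 27 (1 positive) and 2 of 13 (1 positive), in the same order, beside 10.3% of all genes. The cholesterol list stood above that share and the other 4 near it.

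An interaction can come from either arm, and the contrasts of sh1/2 with control cells within each arm showed where the levels differed. Between the lines 5125 genes differed with activin B (33.7%) and 5376 under DOX alone (35.3%), so a difference in level was common. Of the 112 blunted induced genes, 70 were lower and 12 higher in sh1/2 cells with activin B, while 23 were lower and 60 higher under DOX alone. Agt, Gc, Bmf, Adamts6 and Lamb1 were called in both arms, higher under DOX alone and lower with activin B. Pax4 and Sox4 were called under DOX alone and not with activin B. Scg3, Syt7, Hes6 and Spon2 were called with activin B and not under DOX alone.

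Of the 54 blunted repressed genes, 38 were higher and 7 lower in sh1/2 cells with activin B, while 13 were higher and 27 lower under DOX alone. Pdia6, Sdf2l1 and Cpn1 were called higher with activin B and were not called under DOX alone, and Phactr3 was called lower under DOX alone and not called with activin B. Of the 112 genes, 29 differed with activin B alone, 30 under DOX alone and 53 in both arms; of the 54 genes the numbers were 14, 9 and 31. These contrasts share libraries with the interaction and describe it.

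**Figure D5:**
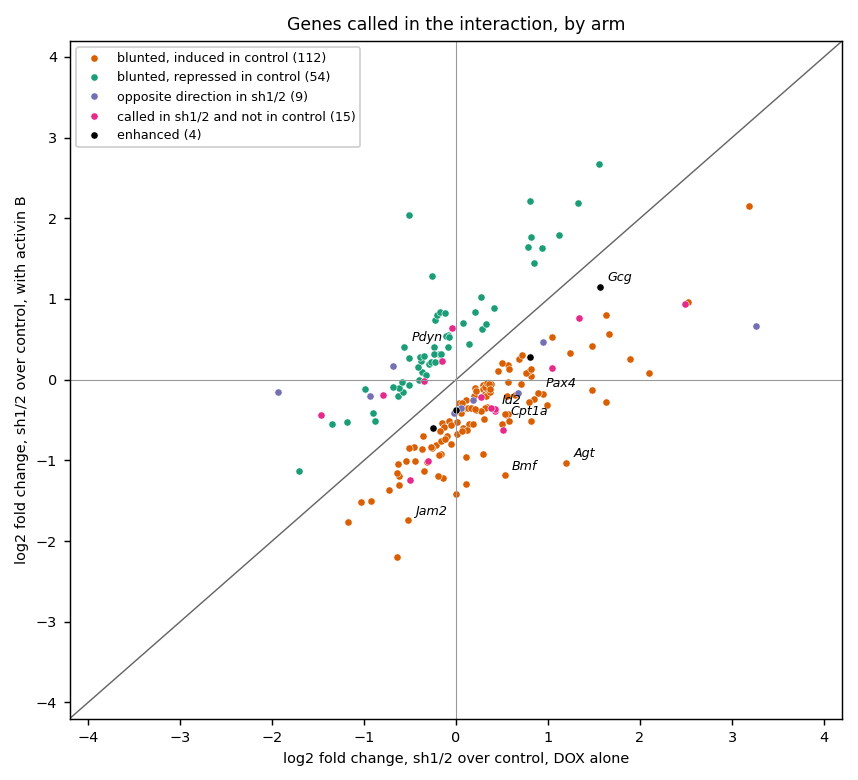
Level of the 194 called genes in sh1/2 cells over control cells, as log2 fold changes, with activin B (vertical axis) and under DOX alone (horizontal axis). Points beyond the axes are not shown, among them a gene at 4.29 under DOX alone. Colours give the class, and the diagonal marks an equal difference in both arms. The blunted induced genes lie below the diagonal, many of them at positive values under DOX alone, and the blunted repressed genes lie above it.

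Cells with the single hairpin sh2, in the same plasmid PB-31, gave the activin B response of the same genes in 6 other libraries. In sh2 cells batch and treatment coincided (activin B in batch 1, DOX alone in batch 2), so the values are set side by side with no comparison. The log2 response of Agt was 1.66 in sh1/2 cells, 3.15 ± 0.18 SE in sh2 cells and 3.88 in control cells. For Bmf it was 1.55 in sh1/2 cells, 2.58 ± 0.16 in sh2 cells and 3.27 in control cells, and for Gc 0.19, 1.28 ± 0.05 and 1.52 in the same order. Pdia6 had -0.62 in sh1/2, -1.05 ± 0.04 in sh2 and -1.26 in control cells. Cpt1a had -0.15 in sh1/2, 0.42 ± 0.05 in sh2 and 0.68 in control cells. Pdyn had -1.82 in sh1/2, -3.26 ± 0.16 in sh2 and -2.79 in control cells.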

How the data were processed

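Per the labels' protocols, cells were plated in triplicate, RNA was extracted with Trizol and stranded poly(A) libraries were made. Per the submitters' processing notes, reads passed through bcl2fastq 2.17, cutadapt 1.4.2, HISAT2 (mm10) and featureCounts 1.4.4. The strand setting and the handling of multi-mapped reads are not given in the sources used here. The authors deposited whole-number read counts for 39017 genes. The 30 count columns of the series table equal the single-sample files. The authors' normalized expression table was not used here.

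Counts of 12 libraries were tested with edgeR 4.0.16 in R 4.3.3: filterByExpr (15216 genes), TMM, 4 group means and the quasi-likelihood F test, with Benjamini-Hochberg adjustment and a threshold of 0.05. Each library's trend with GC content (longest GENCODE transcript on GRCm38, known for 98.92% of genes tested) was fitted as a robust spline with 5 degrees of freedom on log2(CPM + 2) and entered as an offset. Printed CPM values carry that correction. The fit was also run on simulated counts drawn independently for each library, so that run says nothing about the replicate pairing. Alternatives used DESeq2 1.42.0, limma 3.58.1 and the settings in the closing section. Replicates differed by more than counting error (chi-square per degree of freedom of at least 7.74).

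Libraries with the same replicate number in a line deviated together (Pearson r across 10718 genes of 0.359, 0.335 and 0.207 in sh1/2 and 0.389, 0.436 and 0.299 in control cells), which is the source of the pairing, as the labels do not state what a number shares. Blocked values stand beside results they change.

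The comparison, its gene lists and the genes always named were chosen with earlier results of these data known. Named genes were 14 pathway and lead genes (Bmf, Gcg, Skil, Smad7, Bambi, Pmepa1, the 5 receptor genes and the 3 SMAD genes of the first paragraphs), up to 8 per blunted or enhanced class and up to 5 per direction of the other classes with the largest interaction among genes called with and without the GC term and a mean of at least 2 CPM, and up to 3 called members per list with the smallest p. Other list members are named only where their list is counted. Low-level genes, secretory genes and the enhanced genes other than Gcg lie outside the rule and are marked.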

Additional observations from a re-analysis of the deposited data

Results flagged for a closer look

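In 194 genes the activin B response differed between sh1/2 and control cells by the test of that difference, the interaction term, and the named ones are given here as log2 interactions. No explanation was weighed.

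Blunted induced genes had interactions of -2.23 (Agt), -1.72 (Bmf), -1.56 (Cdh17), -1.56 (Timm8a1), -1.42 (Spon2), -1.33 (Gc), -1.30 (Adamts6), -1.21 (Jam2), -1.09 (Lamb1), -1.08 (Tph1), -1.05 (Pax4) and -0.91 (Epha5). Smaller ones were -0.76 (Itga6), -0.73 (Scg3), -0.69 (Sox4), -0.61 (Slc16a1), -0.60 (Hes6), -0.56 (Trp53inp1), -0.50 (Syt7), -0.48 (Skil), -0.47 (Nuak1) and -0.42 (Krt7).

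Blunted repressed genes had interactions of 1.404 (Lcp2), 1.00 (Cpn1), 0.98 (Pdyn), 0.95 (Hs3st1), 0.88 (Phactr3), 0.78 (Bhlha15), 0.75 (Fat1), 0.70 (Sema6a), 0.66 (Sdf2l1), 0.64 (Pdia6), 0.61 (Slit1) and 0.49 (Hyou1). Cpt1a (-0.84) and Mmd2 (0.73) responded in opposite directions in the lines, each called in both. Id2 (-0.79), Smad9 (-0.70), Cdkn1a (-0.57) and Sorl1 (0.61) were called in sh1/2 cells and not in control cells, and Gcg (-0.42) fell more in sh1/2 cells.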

How the results depend on the processing

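The direction of all 194 called genes was the same in all 23 alternatives, while the number of calls was not. Counts below are given as interaction calls, then blunted, opposite, enhanced and sh1/2-alone genes (194, 166, 9, 4 and 15 as reported). Without the GC term they were 56, 48, 3, 1 and 4, and the control response covered 12.3% of genes instead of 21%. With GC and length trends they were 292, 241, 15, 8 and 28. Fitted with all 30 libraries they were 1009, 661, 34, 29 and 237 with GC trends, and 2712, 878, 51, 46 and 1352 without, with 36.4% of genes in the sh1/2 response instead of 18.1%. Without the low-count filter there were 117, 97, 4, 1 and 15, and, of the larger number of genes tested, 9.49% were called in the sh1/2 response, 9.28% in the control response, 16% between the lines with activin B and 16.8% under DOX alone. DESeq2 gave 502, 372, 9, 16 and 80, and limma-voom with library quality weights 2392, 1024, 159, 70 and 996, with 32.8% of genes in the sh1/2 response and the lowest weight (0.241) for sh1/2 DOX replicate 2. Without the 3 libraries with strong GC trends (sh1/2 DOX replicates 1 and 3, control activin B replicate 2) there were 63, 50, 5, 2 and 6, with 10.7% of genes in the sh1/2 response and 23.3% between the lines under DOX alone, and 51 of the 194 genes were called. RLE scaling gave 200 calls.

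With the replicate block within each line the counts were 1568, 855, 123, 50 and 478 with GC trends, with 28.5% of genes in the sh1/2 response, and 1134, 387, 57, 14 and 630 without GC trends, with 31.6%. The block ended the call of 0 of the 194 genes. Without GC trends the block fit had 889 positive and 245 negative calls, against 780 and 788 with them. Without the block the calls were 62 positive and 132 negative with GC trends and 18 and 38 without, and DESeq2 had 213 positive and 289 negative.

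Leaving out single libraries gave 86 to 2654 interaction calls, 76 to 916 blunted, 2 to 194 opposite, 0 to 68 enhanced and 6 to 1277 sh1/2-alone genes, and 12.4% to 30.8% of genes in the sh1/2 response. The highest values came without sh1/2 DOX replicate 2. The Acvr1c interaction lay between -0.34 and 0.00 over the alternatives and was called in none of them. Of 451 checks of the named called genes in other settings 412 kept the call and 39 lost it, and of 492 checks without 1 library 440 kept it and 52 lost it. Among named genes whose call was lost without the GC term, some interactions were then larger in size. They were Skil (-0.72), Slit1 (1.03), Sdf2l1 (0.99), Trp53inp1 (-0.85) and Tph1 (-1.20). Smaller ones were Cdkn1a (-0.34), Nuak1 (-0.37), Sox4 (-0.63), Hes6 (-0.06), Syt7 (-0.25), Spon2 (-1.12), Krt7 (-0.31) and Lcp2 (1.32). The cause of these changes was not tested. Depth limits low genes: Bmf had 27 to 439 deposited counts per library, and small differences at such counts may not be detectable.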

Other observations

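Genes of cholesterol synthesis and uptake had 0 calls of 24 in the edgeR interaction test, 11 at an unadjusted p below 0.05, 5 by DESeq2 and 10 with the replicate block, 8 of the 10 negative. The shares of all genes under these 4 rules were 1.27%, 19.2%, 4.41% and 10.3%, in the same order. Fdps, which makes farnesyl diphosphate, stood at 210.0 ± 13.5 CPM in sh1/2 cells with activin B and 243 ± 11.7 CPM in sh1/2 cells under DOX alone, against 444 ± 13.99 CPM in control cells with activin B and 401 ± 22.6 CPM in control cells under DOX alone (SD, n = 3 each), with an interaction of -0.36 ± 0.08 SE (adjusted p = 0.0604 in the edgeR quasi-likelihood test, and 0.0148 with the block). Fdps was lower in the sh1/2 libraries than in the control libraries in both arms.

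Calcium and cAMP early genes had 0 calls of 17 in the edgeR interaction test, 6 at an unadjusted p below 0.05, 2 by DESeq2 and 5 with the block, all 5 negative (Btg2, Crem, Dusp1, Fosl2 and Nr4a3), with a median interaction of -0.19. Of 29 calcium and potassium channel genes 0 were called by edgeR, 15 had an unadjusted p below 0.05, DESeq2 called 1 and the block 10, 4 positive and 6 negative. For both lists the same shares of all genes apply, 1.27%, 19.2%, 4.41% and 10.3%. Activin B raised 7 of the 29 in sh1/2 cells and 13 in control cells, beside 8.5% and 11.5% of all genes. It lowered 4 of the 29 in sh1/2 cells and 6 in control cells, beside 9.6% and 9.44% of all genes.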
